A study of Mus musculus with 32 samples.

Results

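Merging the HNF4A ChIP-seq peaks of 8 mouse jejunal libraries wherever they shared at least 1 bp gave 45323 sites on chromosomes 1 to 19 and X (mm9). Far intergenic sites were the 5350 of these, 11.8%, that overlapped no protein-coding gene body and lay over 50 kb from every protein-coding gene start in the GENCODE M1 annotation. Another 13201 sites were intergenic but lay within that limit, and 26772 lay over a protein-coding gene. The site just inside the limit was 50001 bp from the start of Mapk10 and the site just outside it was 49998 bp from the start of Srsf5.

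The 8 libraries came from individual male C57BL/6J mice of 10 to 12 weeks that differed in microbiota. GF+HFM mice were reared germ-free and CV+HFM mice began life germ-free and had carried a conventional fecal microbiota from that strain for 14 days. Both groups received a high-fat meal (HFM), an egg yolk gavage, and their jejunal intestinal epithelial cells (IECs) were collected 2 hours later, with 4 mice per group and 1 input library per condition. The preparations were unsorted and hold mostly villus epithelial cells along with some crypt and mesenchymal cells. Neither group here lacked the meal, so the comparison is of colonized with germ-free mice after a meal. Each deposited list held the chromosome, start, end and identifier of peaks past the study's false discovery threshold, and no column of enrichment. A site was therefore either called or not called in a library, peak width was the only measure of size, and the sequencing depth behind a call is unknown.

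HNF4A, hepatocyte nuclear factor 4 alpha, is a nuclear receptor that binds DNA as a homodimer and is a main transcription factor of enterocytes, the absorptive cells of the villus. Much of its binding in the intestine lies at enhancers, which can act on genes over long distances and need not act on the gene whose start is nearest. The nearest gene is therefore a position on the map here, not a target.

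The reference sequence of 8 far sites, 200 bp at the midpoint of each, shows the kinds of site described below. Sequences are the plus strand of mm9, in 5′ to 3′ order. Capitals mark the match nearest to either of 2 binding words, on either strand, where it had at most 1 mismatch. CAAAGTCCA is the word specific to HNF4 factors, and CAAAGGTCA is bound by HNF4 factors and other nuclear receptors. The first 2 sites were among the widest called in all 8 libraries, upstream of Jmjd1c, a histone demethylase family gene, and of Klf3, a Krüppel-like factor. The Jmjd1c window has no match within 1 mismatch.
Jmjd1c, chr10:66384144-66384343: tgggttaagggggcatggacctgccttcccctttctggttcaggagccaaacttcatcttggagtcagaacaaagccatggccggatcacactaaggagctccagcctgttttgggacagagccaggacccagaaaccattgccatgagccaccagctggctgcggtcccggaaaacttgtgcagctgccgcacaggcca
Klf3, chr5:65101881-65102080: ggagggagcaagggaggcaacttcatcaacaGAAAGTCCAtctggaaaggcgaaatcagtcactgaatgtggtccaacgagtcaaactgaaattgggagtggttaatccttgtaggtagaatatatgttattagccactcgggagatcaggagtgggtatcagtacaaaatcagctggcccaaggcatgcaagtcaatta
The next site, downstream of Klf6, was called in all 4 GF+HFM and no CV+HFM library, and the one that follows, upstream of Erbb2ip, was called in 2 CV+HFM and no GF+HFM libraries.
Klf6, chr13:6114914-6115113: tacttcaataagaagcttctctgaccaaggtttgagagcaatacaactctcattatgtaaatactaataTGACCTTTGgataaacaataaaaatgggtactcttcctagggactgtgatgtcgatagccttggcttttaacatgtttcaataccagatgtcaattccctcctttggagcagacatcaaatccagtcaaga
Erbb2ip, chr13:104770689-104770888: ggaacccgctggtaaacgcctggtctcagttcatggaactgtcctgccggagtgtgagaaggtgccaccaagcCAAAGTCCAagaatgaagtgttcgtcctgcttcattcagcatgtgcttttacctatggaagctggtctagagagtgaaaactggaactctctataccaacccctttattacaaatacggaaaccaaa
The next 3 were far from any start. The site between Otol1 and Sis lay 1267 kb from the nearest start, the site near Tns3 lay 619 kb away, and the site upstream of Cdh20 was the farthest of all far sites called in at least 2 libraries, at 2144 kb.
Otol1 and Sis, chr3:71078270-71078469: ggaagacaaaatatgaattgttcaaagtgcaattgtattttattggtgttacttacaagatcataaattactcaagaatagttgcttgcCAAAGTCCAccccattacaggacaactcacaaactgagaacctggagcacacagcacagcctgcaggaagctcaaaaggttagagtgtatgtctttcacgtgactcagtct
Tns3, chr11:7945196-7945395: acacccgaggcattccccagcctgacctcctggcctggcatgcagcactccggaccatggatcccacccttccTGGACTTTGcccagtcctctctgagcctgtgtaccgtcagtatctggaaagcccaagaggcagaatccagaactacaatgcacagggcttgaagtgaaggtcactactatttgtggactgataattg
Cdh20, chr1:104520477-104520676: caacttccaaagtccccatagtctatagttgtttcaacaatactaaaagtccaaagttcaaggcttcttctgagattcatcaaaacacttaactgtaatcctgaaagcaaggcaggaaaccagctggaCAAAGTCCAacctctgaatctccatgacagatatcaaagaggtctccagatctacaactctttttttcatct
The last site, upstream of Slc45a1, was called in all 8 libraries and had the smallest p of the far sites when relative width was compared between the groups.
Slc45a1, chr4:150080997-150081196: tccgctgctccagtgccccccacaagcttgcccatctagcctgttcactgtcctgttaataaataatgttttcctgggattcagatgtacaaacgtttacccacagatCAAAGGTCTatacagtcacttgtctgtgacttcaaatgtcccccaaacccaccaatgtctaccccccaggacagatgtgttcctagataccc

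GF+HFM libraries 1 to 4 called 3959, 3312, 3941 and 4090 far sites, and CV+HFM libraries 1 to 4 called 3345, 940, 2276 and 449. The GF+HFM libraries lay close together, the CV+HFM libraries were spread from 449 to 3345, and the groups overlapped because CV+HFM library 1 called more far sites than GF+HFM library 2. The means were 3825.5 ± 349 (SD, n = 4) in GF+HFM and 1752.5 ± 1313 (SD, n = 4) in CV+HFM, a 2.18-fold difference that did not pass the exact permutation test over libraries (two-sided, p = 0.0571, with 0.0286 the smallest p it allows). The total number of sites called per library ran from 29083 to 34747 in GF+HFM and from 4007 to 27656 in CV+HFM. Without CV+HFM library 1 the difference in means was -2604 sites (p = 0.0286, exact permutation test, again the smallest possible). Leaving out any other library gave p of 0.0571 to 0.0857 in the same test. The part of list length in the difference was not tested. With every list limited to its 4445 widest peaks the group means differed by 4 far sites, which follows largely by construction where far sites take a similar share of every list.

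Far sites took nearly the same share of every list. The share was 11.4%, 11.4%, 12.0% and 12.2% of the sites called in GF+HFM libraries 1 to 4 and 12.1%, 10.8%, 11.6% and 11.2% in CV+HFM libraries 1 to 4. The range in one group lay across that of the other, and the means of 11.7% ± 0.409 and 11.4% ± 0.556 (SD, n = 4 each) gave a difference of -0.330 percentage points (CV+HFM minus GF+HFM) (exact permutation test, two-sided, p = 0.4). Likewise, the percent of far sites called minus the percent of other sites called ran from -3.02 to 2.57 points in GF+HFM and from -1.89 to 1.70 points in CV+HFM, a difference in means of -0.0453 points that was smaller than the spread (p = 1, exact permutation test).

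**Figure D1:**
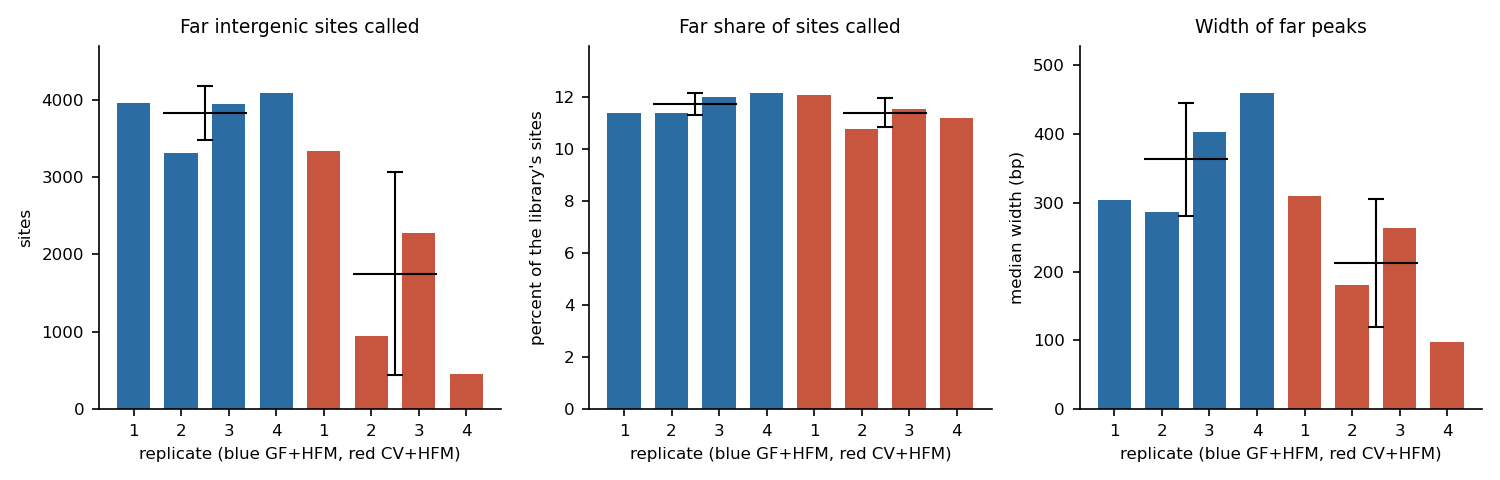
Far sites called, their percent of all sites called and the median width of far peaks in bp are plotted as 1 bar per library, blue for GF+HFM and red for CV+HFM, with the mean and SD of each group in black. Counts ran from 449 to 4090, while the share stayed between 10.8% and 12.2% in all 8 libraries.

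Far peaks were a little narrower than the other peaks of the same list. Their median width was 304, 287, 403 and 460 bp in GF+HFM libraries 1 to 4 and 310, 181, 263 and 98 bp in CV+HFM libraries 1 to 4. GF+HFM libraries 1 and 2 and CV+HFM library 1 were close to each other, so the groups overlapped, and the means of 363.5 ± 82.2 bp and 213 ± 93.4 bp (SD, n = 4 each) gave a difference of -150.5 bp, which did not pass the exact permutation test (two-sided, p = 0.0857). Within each list the far median was 4 to 13 bp below that of all other peaks, lower in 8 of 8 libraries, with a mean difference of -8.5 ± 3.42 bp (SD, n = 8, exact sign-flip permutation test, p = 0.00781, the smallest it can give). This difference missed the threshold with a limit of 20 kb (-3.38 bp, p = 0.0625) and among peaks of at least 300 bp (-7.19 bp, p = 0.109), by the same exact test.

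By calls, 351 far sites (6.56%, against 7.59% of all sites) were in all 8 lists and 1122 (21.0%, against 21.4% of all sites) were in 1 list. A total of 3372 far sites (63.0%) were called in both conditions, 1778 (33.2%) in GF+HFM libraries alone and 200 (3.74%) in CV+HFM libraries alone. The same shares of the other sites were 61.8%, 35.9% and 2.35%. Of the 200 far sites called in CV+HFM alone, 159 were called in CV+HFM library 1 and no other library. The median width of a merged far site was larger the greater the number of libraries that called it, from 226 bp for 1 library to 890 bp for 8, close to the 224 bp and 903 bp of other sites. A merged site spans all the peaks joined in it, so part of this rise follows by construction.

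Calls in the CV+HFM lists were then read for the 2709 far sites that all 4 GF+HFM libraries called. CV+HFM libraries 1 to 4 called 91.2%, 33.9%, 76.3% and 15.5% of them, against 91.6%, 37.6%, 78.2% and 17.2% of the 20314 other sites called in all 4 GF+HFM libraries. The percent was lower for far sites in 4 of 4 libraries, with a mean difference of -1.92 ± 1.32 points (SD, n = 4, exact sign-flip permutation test, p = 0.125, the smallest that 4 libraries allow). Within each library the percent called differed more between width classes than between far and other sites. In the quartile of narrowest sites in GF+HFM, 77.7%, 6.59%, 44.4% and 2.02% of the 743 far sites were called in CV+HFM libraries 1 to 4, and in the widest quartile 100%, 74.6%, 97.9% and 44.4% of the 574 far sites were. The share of far sites called was higher at each step of width in all 4 libraries. Within quartiles, from narrowest to widest, the mean difference between far and other sites was 0.595, -0.0102, -1.28 and -0.0256 points, each smaller than its SD over the 4 libraries.

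**Figure D2:**
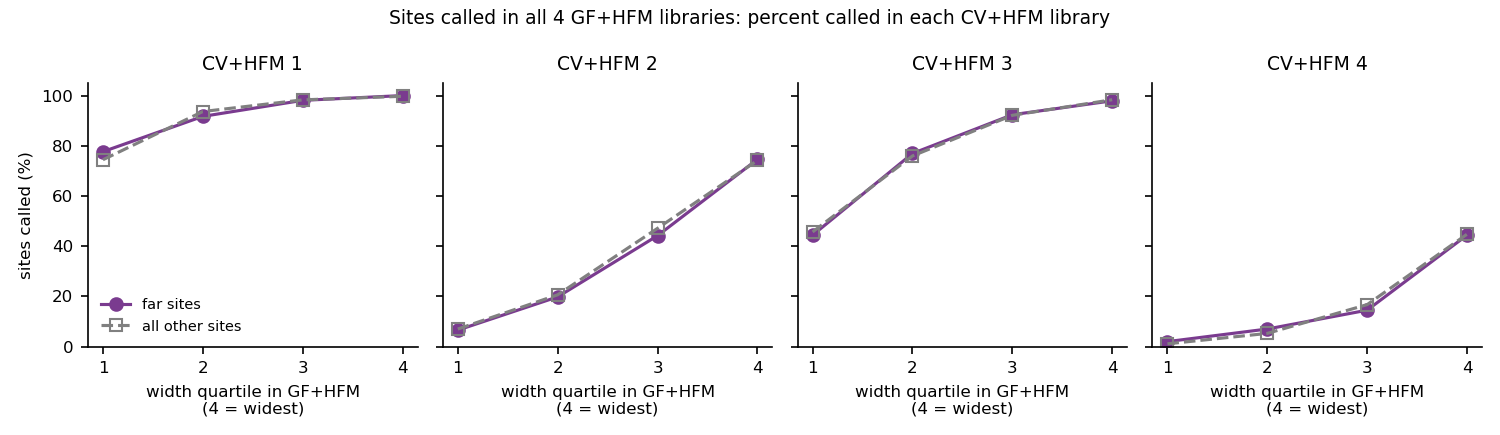
The percent of sites called in all 4 GF+HFM libraries that each CV+HFM library also called is plotted against the width quartile in GF+HFM, with far sites as filled circles and all other sites as open squares. The lines for far and other sites lie within 3.21 points of each other at every quartile and in each of the 4 libraries.

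Sites called in every library of one condition and none of the other took similar shares of the far sites and of all sites. In all 4 GF+HFM and no CV+HFM libraries, 138 far sites (2.58%) were called, where the share over all 45323 merged sites was 2.79%. In all 4 CV+HFM and no GF+HFM libraries, 0 far sites were called, and the share over all merged sites was also 0%. A single site with 4 calls against 0 gives p = 0.0286 in Fisher's exact test (two-sided), so none could pass after adjustment over all sites. The one with the highest mean width percentile in GF+HFM, 103 kb downstream of Usp12, a deubiquitinase gene, spanned 357, 404, 790 and 706 bp in GF+HFM libraries 1 to 4. The site 254 kb downstream of Klf6, which holds an exact CAAAGGTCA, spanned 550, 207, 532 and 635 bp. Its width percentiles within these lists were 84.6, 18.6, 69.7 and 72.6, so GF+HFM library 2 placed it among its narrow peaks. Other such sites lay 79.8 kb upstream of Rcn1 toward Pax6, 211 kb upstream of Atp10a, 243 kb upstream of 4930591A17Rik and 68.2 kb upstream of Gm11016. With lists reduced to their widest peaks the count of 138 became 1 in this direction (0.0872% of far and 0.526% of all sites) and 1 in the other. Without CV+HFM library 1 it became 614 (11.8% of far and 10.96% of all sites), without CV+HFM library 3 it became 233 (4.37% and 4.22%) and without GF+HFM library 2 it became 307 (5.84% and 5.62%).

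A total of 5 far sites were called in at least 2 CV+HFM and no GF+HFM libraries, each in 2 libraries, or 0.0935% of far sites against 0.0331% of all sites. Of these, 4 lay 50.5 kb upstream of Il17b, 198 kb downstream of Gm17521, 60.1 kb upstream of Erbb2ip and 216 kb downstream of Dysf, the last named after its values were seen. The Il17b site spanned 218 bp in CV+HFM library 2 and 58 bp in CV+HFM library 4. The Gm17521 site spanned 278 bp in CV+HFM library 1 and 55 bp in CV+HFM library 4, and the Erbb2ip site 263 bp in CV+HFM library 1 and 122 bp in CV+HFM library 2. In 2 of the 5 windows a short unit of bases repeated in a run of at least 30 bp, one of them the Gm17521 window with a run of 45 bp. Such runs were in 2.75% of all far windows (95% Wilson interval 2.34 to 3.22, which covers the counting of sites only) and 2.05% of other windows (1.92 to 2.20). The Erbb2ip window holds an exact CAAAGTCCA.

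Among the 3440 sites called in all 8 libraries, 351 of them far, width was ranked within each library and its normal scores were compared between conditions with limma. One far site passed the adjusted threshold, lower in CV+HFM, and none were higher, against 0.116% of all tested sites lower and 0% higher. At an unadjusted p below 0.05 there were 28 far sites lower and 23 higher in CV+HFM, 14.5% of the far sites, against 12.5% of all tested sites. The site that passed lies at chr4:150080104-150082090, 53.8 kb upstream of Slc45a1, a sugar transporter family gene. The widest peak of each library in this site spanned 587, 557, 924 and 1845 bp in GF+HFM libraries 1 to 4. In CV+HFM libraries 1 to 4 it spanned 323, 187, 281 and 55 bp. Ranks were taken on the sum of a library's peaks in a site, so they need not follow these spans. The width rank of this site, as a percentile among the 3440 sites, was 74.8, 89.0, 91.7 and 96.8 in GF+HFM and 46.4, 23.0, 8.20 and 8.21 in CV+HFM, so the groups did not overlap. The site was picked by these same ranks, so this gap is not separate support. The difference in normal score was -2.19 ± 0.378 (SE, limma, Benjamini-Hochberg adjusted p = 0.04997). Its adjusted p was 0.0693 with replicate number as a block, 0.152 on log2 width and 0.0523 with a robust fit, and it passed in 1 of the 8 fits that left out a library, that without CV+HFM library 1, where the adjusted p was 0.0108.

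The next far site by this test lay 80.3 kb upstream of Epb4.1l3, a membrane cytoskeleton gene, with ranks of 97.4, 92.7, 98.2 and 98.1 in GF+HFM and 83.2, 7.53, 21.0 and 34.8 in CV+HFM libraries 1 to 4 (limma, adjusted p = 0.0709, and 0.0313 with replicate number as a block). The groups did not overlap, although CV+HFM library 1 was close to GF+HFM library 2, and this site too was picked by these ranks. The third site lower in CV+HFM lay 84.9 kb upstream of Armc2, and those ranked highest in the opposite direction lay near 5930403N24Rik, Cxadr and Auts2, all with a limma adjusted p of 0.316. The Cxadr site, upstream of a tight junction receptor gene of epithelia, had a mean rank of 12.4 ± 6.60 (SD, n = 4) in GF+HFM and a higher one of 45.0 ± 17.4 (SD, n = 4) in CV+HFM.

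The widest far sites called in all 8 libraries were named by their mean width percentile. The highest, at chr10:66382981-66385507, overlaps the long noncoding RNA genes 1110002J07Rik and Gm17351 and starts 173 kb upstream of Jmjd1c. Its peak spanned 1875, 1701, 2527 and 2457 bp in GF+HFM libraries 1 to 4 and 1964, 567, 1761 and 557 bp in CV+HFM libraries 1 to 4, and it was above the 99th width percentile in all 8 lists. The narrower spans in CV+HFM libraries 2 and 4 are thus among the widest of those short lists. The others of the widest 6 lay 79.3 kb upstream of Tiam2, 176 kb downstream of Rnf152, 51.5 kb upstream of Tob1, an antiproliferative gene, 91.9 kb upstream of Klf3 and 182 kb downstream of Sp3, a transcription factor gene. The Klf3 site spanned 1334, 681, 1317 and 1413 bp in GF+HFM and 1191, 405, 598 and 444 bp in CV+HFM, at width percentiles of 95.5 to 99.7.

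Some of the farthest sites were called in every library. The site between Otol1 and Sis, the sucrase-isomaltase gene, was called in all 8 libraries, with widths of 415, 409, 519 and 551 bp in GF+HFM and 417, 331, 356 and 431 bp in CV+HFM. GF+HFM libraries placed it at width percentiles of 62.9 to 75.6 and CV+HFM libraries at 72.2 to 98.9. It holds an exact CAAAGTCCA, an AP-1 word and a CDX word in its 200 bp window. The site 619 kb from the start of Tns3, an adhesion protein gene, spanned 436 to 520 bp in GF+HFM and 447, 233, 419 and 147 bp in CV+HFM, and holds an exact CAAAGTCCA on the minus strand. The other 2 of the 4 farthest sites called in all 8 libraries lay 915 kb from Gm16391 and 614 kb from Gsdmc, on the side toward Myc. The site 2144 kb upstream of Cdh20 had calls from all 4 GF+HFM libraries and from CV+HFM libraries 1 and 3, holds an exact CAAAGTCCA, and a second site 2141 kb upstream of the same gene was called in 4 GF+HFM and no CV+HFM libraries.

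Sequence eligible under the distance rule came to 1010.4 Mb, 39.5% of the sequenced bases, and held 5.30 far sites per Mb. The rest held 25.9 other sites per Mb, 4.88 times as many. Density was lower in each band farther from the nearest start, at 11.5 sites per Mb at 50 to 100 kb, 6.66 at 100 to 200 kb, 3.30 at 200 to 500 kb and 0.814 beyond 500 kb. The bands held 2520, 1597, 1040 and 193 far sites. In the nearest band GF+HFM libraries called 62.4% to 75.7% of the sites and CV+HFM libraries 8.93% to 64.7%, and beyond 500 kb they called 56.5% to 80.3% and 7.77% to 53.4%. The percent was lower beyond 500 kb than in the nearest band in 7 of the 8 libraries and higher in GF+HFM library 4, at 80.3% against 75.4%. The median distance was 106 kb and the highest 2144 kb. By chromosome, density was highest on chromosome 13, at 8.53 far sites per Mb, and lowest on chromosome X, at 1.64, where other sites were also sparse (5.64 per Mb). Far sites were upstream of the nearest gene in 56.1% of cases, and 50.4% had another merged site within 5 kb, against 62.6% of other sites. Bodies of lincRNA, processed transcript or pseudogene annotations, which the rule did not use, held 349 far sites (6.52%) and 3.23% of the eligible sequence. The lincRNA genes with the most were Gm14005 with 11 far sites and 2610035D17Rik with 10.

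Far sites were unevenly spread over the intergenic stretches of the genome. Eligible sequence fell into 4038 stretches, of which 1356 held a far site. The 108 stretches with more than 10 held 35.0% of all far sites, whereas 111 of the 239 stretches over 1 Mb held none. The stretch with the most, 697 kb between the starts of Maf and Dynlrb2, held 51 far sites, of which GF+HFM libraries 1 to 4 called 43, 36, 41 and 43 and CV+HFM libraries 1 to 4 called 31, 10, 27 and 3. That between Tbc1d1 and Klf3 held 49 in 402 kb and that between Klf5 and Klf12 held 39 in 522 kb.

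A total of 1661 genes were the nearest start of a far site, 711 of them for 1 site and 76 for more than 10. The genes with the most far sites called in at least 2 libraries included several transcription factors known from the intestinal epithelium. Maf, a basic leucine zipper factor gene on chromosome 8 (118206842 to 118231694, minus strand), had 52 far sites, 42 of them in at least 2 libraries. GF+HFM libraries 1 to 4 called 42, 33, 44 and 44 of the 52 and CV+HFM libraries called 29, 12, 27 and 6, so the groups did not overlap. Such a gap, with every GF+HFM library above every CV+HFM library, held for 5 of the 12 genes with the most sites, for 23 of the 76 genes with more than 10 sites and for 7.89% of the 1661 genes. The opposite gap held for 0%. Since CV+HFM lists were shorter, this is a description and carries no test.

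A total of 4 Krüppel-like factors were among the 12. Klf3 (chromosome 5, 65194628 to 65221368) had 37 far sites, called 26, 26, 29 and 30 times in GF+HFM libraries 1 to 4 and 24, 13, 19 and 6 times in CV+HFM libraries 1 to 4. Klf5, a factor of proliferating crypt cells, had 31 far sites, called 25, 17, 27 and 26 times in GF+HFM and 20, 3, 11 and 2 times in CV+HFM. Klf6 had 32 far sites, called 22, 17, 25 and 28 times and 20, 3, 8 and 1 times. Klf4, a factor of differentiating and goblet cells, had 30 far sites, called 22, 19, 26 and 24 times and 20, 8, 15 and 4 times. At Klf3 the groups did not overlap, while at Klf4, Klf5 and Klf6 CV+HFM library 1 reached or passed GF+HFM library 2. Density ran from 40.6 far sites per Mb of nearest eligible sequence at Klf6 to 129 at Klf3.

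The other genes of the 12 were mostly regulators of transcription. Tbl1xr1, a subunit of nuclear receptor corepressor complexes, had 34 far sites, of which CV+HFM library 1 called 26, as many as GF+HFM library 1, and CV+HFM library 4 called none. Gata6, an endoderm factor gene, had 24 far sites, called 21, 15, 20 and 20 times in GF+HFM and 14, 2, 7 and 0 times in CV+HFM. Cited2, a coactivator-binding protein gene, had 26, Zmiz1, a transcriptional coregulator gene, had 25, and Jarid2, a Polycomb repressive complex partner gene, had 24. Dynlrb2, a dynein light chain gene that shares its stretch with Maf, had 23. Far sites called in all 8 libraries numbered 6 at Klf3, 5 each at Maf and Jarid2, and 0 at Klf5, Klf6, Tbl1xr1 and Gata6.

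**Figure D3:**
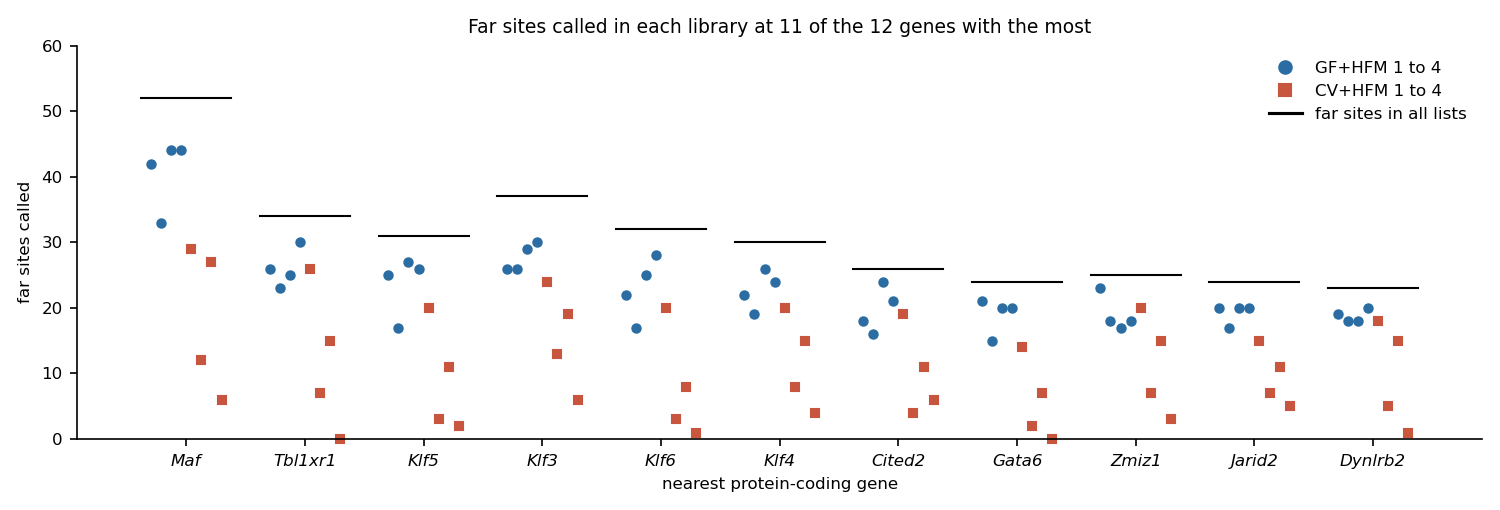
For 11 of the 12 genes that were nearest to the most far sites called in at least 2 libraries, points give the number of far sites called in each library, blue circles for GF+HFM and red squares for CV+HFM, and the black line gives the number in any list. Maf had 52 and Dynlrb2 23, and CV+HFM libraries 2 and 4 called the fewest sites at each gene.

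Gene lists, drawn up with earlier results of these data known, differed in how many far sites lay nearest to their members. Of 44 intestinal transcription factors and nuclear receptors, 26 had eligible sequence nearest to them and 19 of these (73.1%) had a far site, 265 sites in all, or 25.2 per Mb against 5.30 over all genes. Over all 22350 protein-coding genes, 5814 had eligible sequence nearest to them and 28.6% of these had a far site. The 6 members among the 12 genes above held 206 of the 265 sites, and without them the density was 7.996 per Mb. Densities of this and the other lists were not matched for distance from a gene start. Over all far sites density fell from 11.5 to 0.814 per Mb across the distance bands. The part of distance in the differences between lists and all genes was not tested. Other members with far sites were the nuclear receptors Nr3c2 with 8, Nr5a2 and Nr2f2 with 7 each and Ppara with 6, along with Prdm1 and Id2 with 6 each, Isx with 5, Foxa2 with 4 and Gata4 with 2. Gata5, Ehf, Nr2f1, Pparg, Rarb and Smad4 had eligible sequence and no far site, and Hnf4g had 1 far site in 1158 kb.

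Of 46 genes of lipid absorption and fatty acid oxidation, 17 had eligible sequence and 9 of these (52.9%) had a far site, 41 sites in all (16.2 per Mb). Ppargc1a, a coactivator of oxidative metabolism, had 11, called 11, 6, 9 and 10 times in GF+HFM libraries 1 to 4 and 8, 2, 5 and 1 times in CV+HFM libraries 1 to 4, with overlap of the groups. Acsl1, an acyl-CoA synthetase gene, had 7, Gpam, which starts glycerolipid synthesis, had 6, and Abcd3, a peroxisomal transporter gene, had 5. Apob, the chylomicron protein gene, had 5 and Pdk4, a pyruvate dehydrogenase kinase gene, had 4. Of 29 digestion and nutrient transport genes, 8 had eligible sequence and 3 of these (37.5%) had a far site, 8 sites in all. Their density of 2.87 per Mb is over 2.79 Mb, most of it nearest to Sis (1401 kb) and Tmprss15 (1005 kb). Of the 8 sites, the bile acid transporter gene Slc10a2 had 4 and Sis 3. Of 30 stem cell, Notch and Wnt genes, 21 had eligible sequence and 16 of these (76.2%) had a far site, 73 in all (10.2 per Mb). Bmp2, a differentiation signal of the villus, had 22, called 15, 16, 17 and 15 times in GF+HFM and 11, 3, 9 and 1 times in CV+HFM. Sox9, a crypt factor gene, had 14, Myc had 9 and Lrig1 had 8, while the stem cell gene Lgr5 had none.

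The remaining lists were small. Of 9 circadian clock genes with eligible sequence, 3 (33.3%) had far sites, 12 in all (7.45 per Mb), at Arntl, Bhlhe40 and Npas2, with 5, 4 and 3. Of 20 genes induced by microbes, 4 had eligible sequence and 1 of these (25%), Nfkbiz, had far sites, 8 of them, called 6, 4, 5 and 7 times in GF+HFM and 5, 0, 4 and 1 times in CV+HFM. Of the mesenchymal and immune cell genes, 8 of the 22 in the annotation had eligible sequence and 5 of these (62.5%) had 1 far site each (4.14 per Mb). For markers of cell types, a site lay within 1 kb of the start of 6 of 8 enterocyte markers (Vil1, Fabp1, Fabp2, Apoa1, Apoa4 and Alpi, not Sis or Anpep) and of 0 of 5 mesenchymal, 0 of 4 immune and 0 of 2 endothelial markers. The lists hold no expression, so a start without an HNF4A site does not tell whether that cell type was present. The share over all gene starts was not taken.

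**Figure D4:**
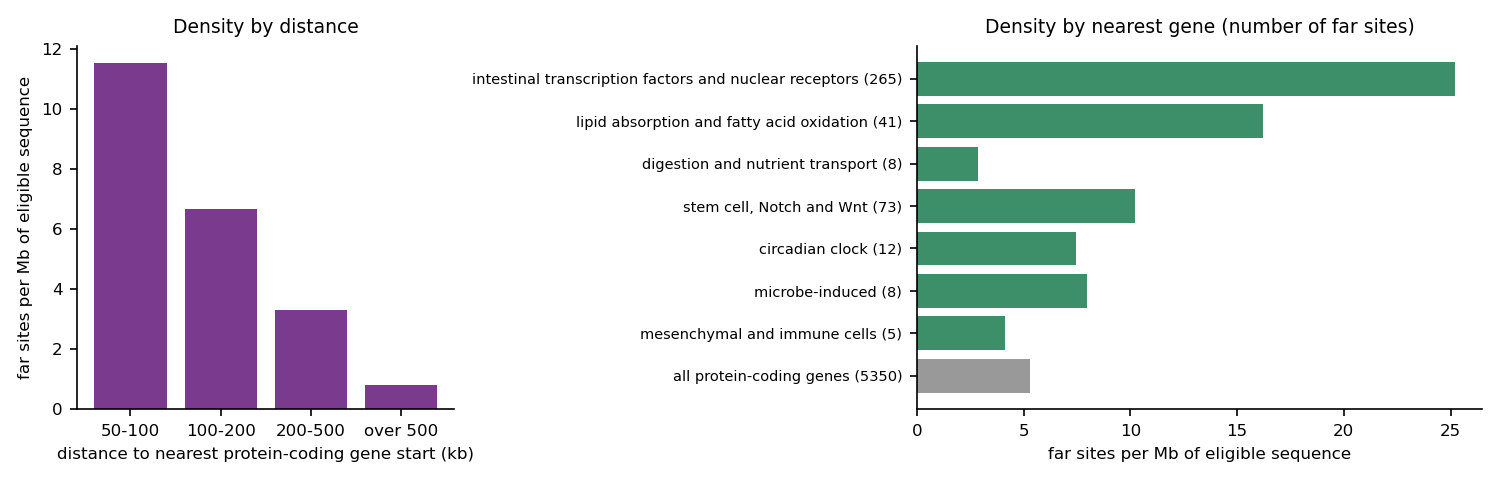
Far sites per Mb of eligible sequence are plotted by distance to the nearest protein-coding gene start (left) and by the list of the nearest gene (right), with the number of far sites of each list in brackets and all genes in grey. Density went from 11.5 to 0.814 per Mb over the 4 bands, and was 25.2 per Mb for intestinal transcription factors and nuclear receptors (7.996 without the 6 members among the 12 genes with the most sites) against 5.30 for all genes. The lists were not matched for distance.

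Binding words for HNF4 and its partners were found at the midpoints of far sites, on either strand of 200 bp windows. CAAAGTCCA was in 6.64% of the 5350 far windows (95% Wilson interval 6.00 to 7.33), in 4.66% of windows at other sites (4.45 to 4.87) and in 0.231% of windows tiled over eligible sequence with no site within 1 kb, so that far sites held it 28.7 times as often as that sequence. CAAAGGTCA, which includes the core AGGTCA, was in 5.46%, 4.16% and 0.236% of the same windows. The core AGGTCA, with or without the rest, was in 26.97%, 24.4% and 10.2%. With 1 mismatch allowed, a setting added after the data were seen, CAAAGTCCA matched 34% of far windows, 28.3% of other windows and 5.55% of eligible windows. The words fell close to the midpoints. In 50 bp bins, CAAAGTCCA occurred 23.0 times per 1000 far sites on average in the 2 central bins and 0.991 times beyond 500 bp, and the figures for other sites were 16.9 and 0.8293.

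Far sites called in more libraries held CAAAGTCCA more often, in 4.28% (3.24 to 5.63) of those called in 1 library and in 9.40% (6.77 to 12.9) of those called in all 8, and for other sites the shares were 3.37% and 8.84%. Among sites called in all 8 libraries the intervals of far and other sites overlapped. Far sites called in GF+HFM alone held CAAAGTCCA in 4.39% (3.53 to 5.44), those called in CV+HFM alone in 5.50% (3.10 to 9.58), and those called in both conditions in 7.89% (7.03 to 8.85). Sites called in both conditions are in at least 2 libraries by definition, so their share is not separate from the rise above. Other sites held the word in 3.21% (2.93 to 3.51) in GF+HFM alone and 6.81% (5.37 to 8.60) in CV+HFM alone. The other word, CAAAGGTCA, was in 5.70% (4.49 to 7.22) of far sites called in 1 library. In those called in all 8 it was in 4.56% (2.83 to 7.28). These intervals overlap, so they neither show nor exclude a rise. At other sites its share was 3.58% (3.21 to 4.00) for 1 library and higher, 4.86% (4.15 to 5.67), for all 8. Its shares at far sites were 5.85% in GF+HFM alone, 6.00% in CV+HFM alone and 5.22% in both conditions. By distance CAAAGTCCA was in 6.79% of far sites at 50 to 100 kb, 6.39% at 100 to 200 kb, 5.67% (4.42 to 7.25) at 200 to 500 kb and 11.9% (8.07 to 17.2) of the 193 beyond 500 kb. CAAAGGTCA was more frequent in each farther band. Its shares were 3.97% (3.27 to 4.80), 5.57% (4.55 to 6.81), 8.17% (6.66 to 10.0) and 9.33% (5.98 to 14.3).

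Words of other factors were also more frequent than in eligible sequence, except those of the intestinal factor CDX, which were near the share there. The GATA word AGATAAG was in 8.07% of far windows, 5.89% of other windows and 3.11% of eligible windows, and the AP-1 word TGACTCA in 9.29%, 7.60% and 2.89%. The CDX words CCATAAA or TCATAAA were in 9.42%, 6.69% and 8.85%. AGGGGGCG, a part of the CTCF motif, was in 0.243%, 1.04% and 0.0905%, and was the one word of the 7 that was rarer in far than in other windows. Base composition differed as well, with a mean GC content of 46.5% ± 6.25 (SD over windows) in far windows, 49.9% ± 8.52 in other windows and 39.9% in eligible sequence. The part of base composition in the shares of words was not tested.

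**Figure D5:**
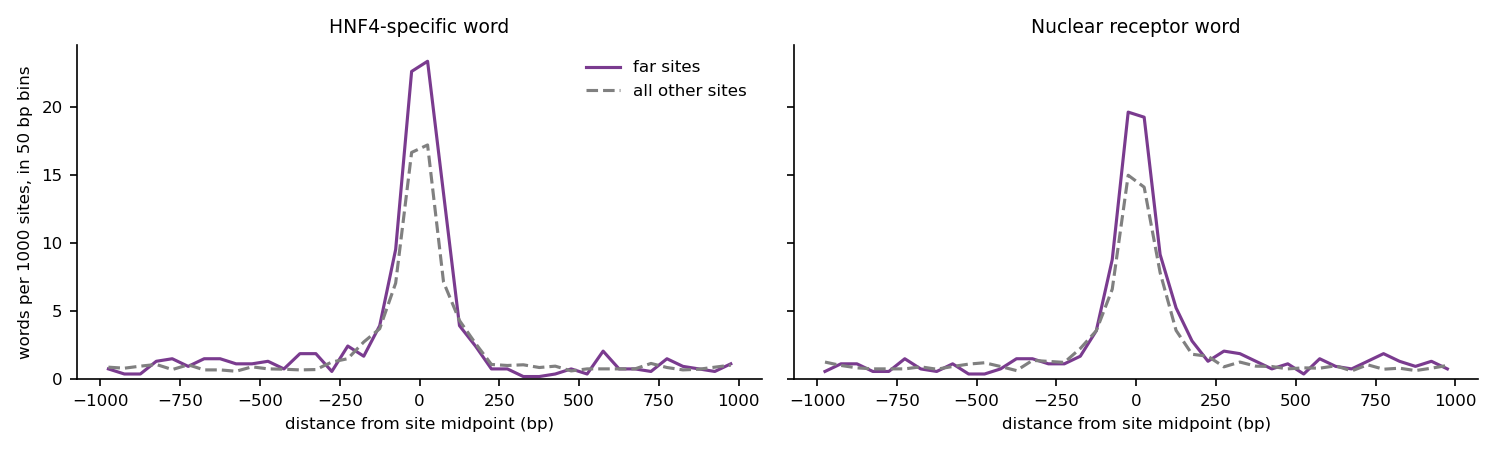
The number of HNF4-specific words (left, CAAAGTCCA in the text) and nuclear receptor words (right) per 1000 sites is plotted in 50 bp bins against the distance from the site midpoint in bp, for far sites (solid) and all other sites (dashed). Both words peak at the midpoint, at an average of 23.0 HNF4-specific words per 1000 far sites in the 2 central bins against 16.9 at other sites.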

How the data were processed

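HNF4A ChIP-seq was analysed in jejunal IEC preparations of 4 GF+HFM and 4 CV+HFM mice. RNA-seq, H3K27ac and libraries without a meal were not used here. Reads were aligned by the authors with Bowtie2 (build mm9), and peaks were called in each library with MACS2 (2.1.1.20160309) at a false discovery rate threshold and a bandwidth of 300 bp. The deposited lists hold peak positions in bp, with no count, fold, score or p-value, so depth and the precision it gives are unknown, and the planned use of a column of peak strength was replaced by width. Whether each list had problem regions removed is not given in the sources used here. The paper took blacklisted regions out of its own merged peaks, a step that was not applied to the merged sites here. Peaks sharing at least 1 bp were merged, which gave the same 45323 sites as bedtools (2.31.1). A further 229 merged sites on other sequence names were left out. Distances run to the nearest protein-coding gene start of GENCODE M1, and eligible sequence is what the distance rule left, unsequenced bases excluded. For the limma ranks, width within a site is the sum of a library's peaks there. Widths and width percentiles given for named sites are those of a library's widest peak in the site.

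Groups were compared over libraries with exact permutation tests, and width rank in sites called in all 8 libraries with limma (3.58.1, R 4.3.3) and Benjamini-Hochberg adjustment, which was tested on simulated data. Other steps used Python (3.11.15) with pandas (2.3.3), scipy (1.17.1) and pysam (0.24.0). Members, gene lists and words were chosen with earlier results of these data known. Sites were named by fixed rules: the 6 with the highest mean width percentile among those in all 8 libraries and among those in 4 GF+HFM and 0 CV+HFM libraries, at most 4 seen in CV+HFM alone, the farthest, up to 3 per direction by limma, and the pair at the limit. Genes named were those among the 12 with the most far sites in at least 2 libraries and list members, and some items these rules named are not reported here. Alternatives covered the distance limit, the cover of a site, minimum width, list length, window size, the scale and the fit of the limma model, replicate block and each library left out. A comparison without both shortest lists, within libraries whose identifier has or lacks a letter A of unstated meaning, and words with 1 mismatch were added after the data were seen. Replicate numbers are shared between conditions, but deviations of same-numbered libraries correlated at 0.0325, 0.103, -0.0729 and 0.109, so the numbers were not taken as pairs.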

Additional observations from a re-analysis of the deposited data

Results flagged for a closer look

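In 13 of 120 groups of 4 libraries (10.8%), 1 library was set apart from the other 3 by the 95% limit of Dixon's ratio. Chance flags about 1 in 20 groups of continuous, normal values, but many of these values are small counts. Where 3 counts are equal, any different one gives a ratio of 1, as at Jarid2, Gpam, Abcd3, Sis and Col3a1. The chance rate for such counts is not known here. The groups are not independent, since genes, lists and bands count the same sites. GF+HFM library 2, which had the shortest list of its group, was the distant one in 7 of them, low in each. It called 15 far sites at Gata6 (20 to 21 in the others), 17 at Jarid2 (20 in each), 3 at Gpam (5 in each), 3 at Abcd3 (4 in each), 22 over the lipid list (33 to 35) and 62.4% of the far sites at 50 to 100 kb (74.6% to 75.7%). Its width rank at the Epb4.1l3 site was 92.7 against 97.4 to 98.2. GF+HFM library 1 called 23 far sites at Zmiz1 (17 to 18) and 2 at Sis (3 in each), and GF+HFM library 3 called the 1 far site at Col3a1 that no other GF+HFM library called. In CV+HFM, library 2 had a width percentile of 94.3 at the Tob1 site (98.9 to 99.5) and library 4 had 83.7 at the Sp3 site (99.3 to 99.8). CV+HFM library 4 also had a width rank of 48.6 at the site near 5930403N24Rik, where the others had 2.47 to 5.47.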

How the results depend on the processing

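The difference in far sites called (CV+HFM minus GF+HFM, -2073) was -1110 with a limit of 100 kb (exact permutation p = 0.0286) and 4 with lists of equal length, and ran from -2604 to -1639 with 1 library left out. The difference in far share (-0.330 points) was 1.83 when a peak had to cover 50% of the site, 0.437 with lists of equal length, 0.0868 without both shortest lists and 0.112 within identifiers with the letter A, and ran from -0.555 to -0.121 with 1 library left out, none past the threshold. The difference in width (-150.5 bp) was -77.4 bp among peaks of 300 bp or more and -77 bp without both shortest lists. It was -44.2 bp with and -333.5 bp without the letter A. It ran from -183 to -112 bp with 1 library left out, with p = 0.0286 (exact permutation test) without CV+HFM library 1. With lists of equal length the difference was -440 bp, but each list was shortened by keeping its widest peaks. Longer lists lost more of their narrow peaks, so the larger gap follows at least in part by construction. It does not tell how width differs at equal list length. Far minus other width (-8.5 bp) missed the threshold at 20 kb (-3.38 bp) and at 300 bp or more (-7.19 bp), and ran from -9.14 to -7.86 bp with 1 library left out. It was -10.4 bp with and -5.33 bp without the letter A, where the libraries are too few to pass (smallest exact p 0.0625 and 0.25). Far minus other share called (-0.0453 points) was 0.692 at 20 kb, 1.18 at 50% cover, 0.711 at 300 bp, 1.89 at equal length, 0.681 without the shortest lists and 2.36 with the letter A, and ran from -1.24 to 0.654. The mean far minus other difference in retention (-1.92 points) was 0.712 at equal length and -0.156 with the letter A, and ran from -2.53 to -1.35.

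The count of 138 sites in 4 GF+HFM and 0 CV+HFM libraries was 235 at 20 kb (2.46% of far and 2.79% of all sites), 85 at 100 kb (3.00% and 2.79%), 241 at 50% cover (4.50% and 4.91%), 1 at equal length (0.0872% and 0.526%), 297 with the letter A (6.18% and 7.52%), 2990 without it (64.4% and 62.3%), and 138 to 614 with 1 library left out. The opposite count of 0 was 1 at equal length (0.325% of all sites), 1 without the shortest lists (0.0177%) and 18 without the letter A (0.387% of far and 0.137% of all sites), where CV+HFM has 1 library. Limma called 0 far sites on log2 width, 0 with a robust fit and 0 to 6 with 1 library left out, 6 of them without CV+HFM library 1. Over all 3440 tested sites, 351 of them far, it called 0 on log2 width, 1 with a robust fit and 34 without CV+HFM library 1. In 400 bp windows the words, in the order given above, matched 7.91%, 6.79%, 38.9%, 12.7% for GATA, 15.3% for AP-1, 16.5% for CDX and 0.430% for CTCF. The cause of these changes was not tested, apart from fewer libraries, fewer peaks or longer windows by construction.

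With replicate number as a block, the tests gave p = 0.125 for far sites called (-2073), p = 0.5 for the far share (-0.330), p = 0.25 for width (-150.5) and p = 1 for far minus other share called (-0.0453), by exact permutation, where 0.125 is the smallest possible. The block left 1 far site called by limma, near Epb4.1l3 (adjusted p = 0.0313) in place of Slc45a1 (adjusted p = 0.0693), while calls over all 3440 sites went from 4 to 2. It changed no call of the exact tests.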
